A study of Mus musculus with 24 samples.

Results

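Distal H3K27ac peaks that were found in untreated cells but not after doxycycline, at sites with H3K4me1 in both conditions, are described here in mouse TgSpi1 erythroleukaemic cells. They were chosen from the peak lists themselves. Each is a peak of the untreated H3K27ac list that no treated H3K27ac peak overlapped by even 1 bp, lay over 1 kb from every annotated end of a protein-coding gene, and overlapped a peak in both H3K4me1 lists. This rule took 6894 of 28902 untreated H3K27ac peaks on assembled chromosomes, or 23.9%, and these 6894 are called the members below. They were set beside 11150 shared distal peaks, which differ from the members in having a treated H3K27ac overlap, and beside 3424 treated-only distal peaks, chosen by the same rule with the H3K27ac lists exchanged.

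The treated cells had doxycycline for 48 h, which induces a short hairpin RNA against Spi1, and the untreated cells had no doxycycline. Both came from bone marrow leukaemic erythroid cells of 1 line, were grown with EPO (erythropoietin, the cytokine of red cell precursors), and carry the Spi1 transgene. No group is labelled as doxycycline without the hairpin, so the drug and the hairpin cannot be told apart. There was 1 peak list per mark and condition: each H3K27ac list stands for replicates 1 and 2 together, and each H3K4me1 list for replicate 1. The lists carry no replicate error, so every difference is one between lists, without a test, and intervals below cover counting error over peaks only. Read depth is unknown. The H3K27ac lists held 23341 treated and 28902 untreated peaks over 41.2 Mb and 41.5 Mb, and the H3K4me1 lists 101388 treated and 119362 untreated peaks over 195 Mb and 184 Mb.

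SPI1 (PU.1) is an ETS factor that opens and marks enhancers in myeloid and B cells, and its forced expression holds erythroid precursors in a proliferating, undifferentiated state. Enhancers carry H3K4me1, laid down by MLL3 and MLL4, whether or not they are in use, while H3K27ac, laid down by p300 and CBP and removed by histone deacetylases, marks those in use. An enhancer that keeps H3K4me1 without H3K27ac is commonly called primed. As a check of the cell type, H3K27ac lay within 1 kb of an end of Klf1, Epor, Tfrc and Tal1 in both lists, with equal lengths, and at Gata1 it covered 42 bp in the treated list and 389 bp in the untreated list. Near the ends of the myeloid markers Csf1r, Itgam and Mpo, the lymphoid markers Pax5 and Cd3e, and the stromal and endothelial markers Col1a1 and Pecam1, both lists had 0 bp. These markers do not stand for all genes of those cell types. In the longer gene lists used below, 17 treated and 20 untreated of 50 myeloid genes had H3K27ac at an end. For B cell genes it was 3 treated and 4 untreated of 15, for T cell genes 2 and 2 of 12, and for erythroid genes 43 and 38 of 47. Over all 21887 protein-coding genes it was 10027 treated and 10181 untreated. Kit, the stem cell factor receptor, had 0 bp in the treated list and 403 bp in the untreated list.

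No genome sequence was used, so sequence is shown only where a RefSeq start window (250 bases before to 50 bases after an annotated transcript start, GRCm38.p6) touched one. There were 116 such windows, of 46 protein-coding and 61 long non-coding RNA genes, at 107 members (1.55%). They are alternative or non-coding starts, since members lie over 1 kb from the outer ends of protein-coding genes. The 4 windows below were picked after the values were seen, because their genes belong to blood cell or chromatin pathways. Fcgr3 encodes an activating receptor for antibody Fc parts on myeloid cells, Hdac7 a class IIa histone deacetylase, Ifit1bl1 an interferon-induced protein of the IFIT family, and Pou2f2 the octamer factor OCT2. Letters run 5′ to 3′ on the gene's strand, and capitals mark a match, on either strand, to one of the 7 motifs counted in the next paragraph.
Fcgr3 start window, chr1:171059354-171059653, minus strand: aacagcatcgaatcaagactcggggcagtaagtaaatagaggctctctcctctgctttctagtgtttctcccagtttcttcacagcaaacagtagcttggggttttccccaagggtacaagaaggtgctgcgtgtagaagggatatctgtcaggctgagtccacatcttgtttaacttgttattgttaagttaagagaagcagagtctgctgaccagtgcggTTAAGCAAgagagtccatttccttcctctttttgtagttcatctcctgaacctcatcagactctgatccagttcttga
Hdac7 start window, chr15:97814814-97815113, minus strand: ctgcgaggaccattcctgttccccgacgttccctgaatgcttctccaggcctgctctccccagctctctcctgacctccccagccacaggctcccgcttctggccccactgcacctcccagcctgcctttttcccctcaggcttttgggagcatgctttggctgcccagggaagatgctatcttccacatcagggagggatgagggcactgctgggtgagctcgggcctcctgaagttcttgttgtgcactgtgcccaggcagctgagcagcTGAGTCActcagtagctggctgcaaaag
Ifit1bl1 start window, chr19:34601919-34602218, minus strand: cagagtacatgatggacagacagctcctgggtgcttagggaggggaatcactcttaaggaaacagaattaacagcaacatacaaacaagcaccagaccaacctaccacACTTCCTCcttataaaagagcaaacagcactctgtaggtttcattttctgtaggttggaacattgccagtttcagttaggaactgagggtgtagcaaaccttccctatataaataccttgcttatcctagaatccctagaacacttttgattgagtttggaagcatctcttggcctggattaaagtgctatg
Pou2f2 start window, chr7:25132411-25132710, minus strand: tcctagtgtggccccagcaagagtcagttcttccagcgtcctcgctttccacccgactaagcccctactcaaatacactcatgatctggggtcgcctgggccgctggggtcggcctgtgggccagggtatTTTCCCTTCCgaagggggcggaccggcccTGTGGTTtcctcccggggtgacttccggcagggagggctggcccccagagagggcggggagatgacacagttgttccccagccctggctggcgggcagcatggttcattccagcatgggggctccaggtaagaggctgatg

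The Hdac7, Ifit1bl1 and Pou2f2 windows lay wholly inside members of 753 bp, 503 bp and 853 bp, and the first 155 bases of the Fcgr3 window as printed lay inside a member of 653 bp. The match marked in the Fcgr3 window lies outside that member, and those marked in the other windows lie inside theirs. The nearest treated H3K27ac peak was 5698 bp from the Hdac7 member, 50898 bp from that at Ifit1bl1, 21548 bp from that at Pou2f2 and 4148 bp from that at Fcgr3. H3K4me1 peaks covered 1127 bp of the 2001 bp centred on the Fcgr3 member in the treated list and 1777 bp in the untreated list. At Ifit1bl1 they covered 553 bp and 1003 bp, in that order, while at Pou2f2 (1977 bp treated, 2001 bp untreated) and Hdac7 (1477 bp treated, 1427 bp untreated) they were nearly equal.

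GAGGAAGT, the ETS motif of the SPI1 type, was in 9 of the 116 windows at members (7.76%, 95% Clopper-Pearson interval 3.61 to 14.2), in 52 of 1402 at shared distal peaks (3.71%), in 0 of 59 at treated-only distal peaks (upper bound 6.06%) and in 3.20% of all 32851 windows. The RUNX motif TGTGGTT was in 11 windows at members (9.48%, 4.83 to 16.3), against 3.85% at shared distal peaks and 5.27% of all windows. The AP-1 motif TGANTCA was in 16 (13.8%, 8.09 to 21.4), against 6.99% and 7.81%. The GATA motif AGATAA was in 12.9%, against 12.0% and 11.2%, and the C/EBP type TTGCNNAA in 12.9%, against 8.92% and 10.8%. The KLF motif CCNCACCC was in 22.4%, against 21.0% and 16.6%. The ETS-IRF composite motif was in 1.72%, against 2.35% and 2.72%. In the 59 windows at treated-only distal peaks, GATA was in 15.3% and the composite in 3.39%, both above the members. There RUNX was in 5.08%, AP-1 in 8.47%, C/EBP in 8.47% and KLF in 15.3%, all below the members. Only 45 of the 116 windows lay wholly inside members. In these 45, the composite was in 2 (4.44%, 0.543 to 15.1) and C/EBP in 4 (8.89%). RUNX was in 7 (15.6%, 6.49 to 29.5), AP-1 in 8 (17.8%), GAGGAAGT in 4 (8.89%), GATA in 6 (13.3%) and KLF in 9 (20.0%). The composite then stood above its shared distal share, and C/EBP no longer did, on 2 and 4 windows. The shared distal windows were not limited to those wholly inside peaks, so these sets are unlike. Both strands were searched, and the motifs may overlap one another. Some windows of the same gene overlap and count the same match again, as at Fcgr3, while the intervals take windows as independent. These windows stand for the 1.55% of members that touch a start, and a match is not a binding site.

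Untreated peaks without a treated overlap were mostly distal and narrow. Of all untreated peaks, 27.4% had no treated overlap, but of those within 1 kb of a gene end only 6.99% had none, and of distal ones with H3K4me1 in both lists 38.2%. In the other direction, 17.1% of all treated peaks and 25.3% of the distal ones with H3K4me1 in both lists had no untreated overlap. Since the rule used this contrast, nothing is read from these shares. Of 7194 distal untreated-only peaks, 6894 (95.8%) had H3K4me1 in both lists, 192 had it in the untreated list alone, 35 in the treated list alone and 73 in neither.

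Members were narrow. Their median width was 503 bp (quartiles 353 and 753 bp, range 3 to 11503 bp), against 1103 bp for shared distal peaks and 603 bp for treated-only distal peaks. Of untreated distal peaks under 300 bp, 67.3% were members, and this share was 59.0% from 300 to 500 bp, 44.7% from 500 to 1000 bp, 22.4% from 1000 to 2000 bp and 5.12% at 2000 bp or more. The treated-only share followed the same slope over the same classes, with 60.8%, 47.3%, 34.6%, 15.5% and 5.06%. Only 149 members were 2000 bp wide or more. How far the overlap of narrow peaks depends on peak calling was not tested.

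**Figure D1:**
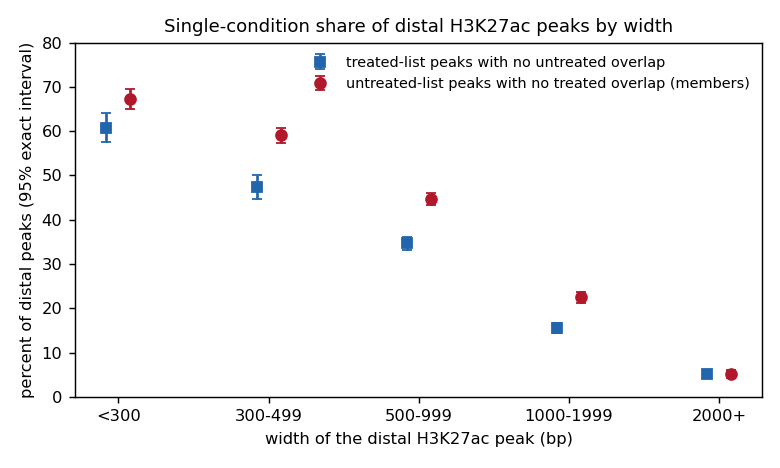
Share of distal H3K27ac peaks with H3K4me1 in both lists that were found in 1 condition alone, by peak width in bp; squares are treated-list peaks with no untreated overlap, circles untreated-list peaks with no treated overlap (the members), and bars are 95% exact binomial intervals. Both shares fall steadily with width, to 5.06% and 5.12% at 2000 bp or more.

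The 1 kb limit cut through a continuous range. The members just inside it lay 1003 bp from an end of Tmem185b and 1005 bp from ends of Ttc1 and Atp6v1e1, with widths of 3 bp, 1053 bp and 53 bp. Peaks just outside lay 998 bp, 997 bp and 994 bp from ends of Tbl1x, Tex264 and Ypel2, with widths of 103 bp, 103 bp and 653 bp.

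Many members stood next to acetylation that remained. The median distance to the nearest treated H3K27ac peak was 5348 bp (95% interval of the median 5048 to 5648). It was within 1 kb for 1614 members (23.4%), 1 to 10 kb for 2702 (39.2%) and over 10 kb for 2578 (37.4%), including 625 (9.07%) over 50 kb away. For 39.6% of members, the treated H3K4me1 peak under the member also held a treated H3K27ac peak elsewhere along its length. A treated-only H3K27ac peak lay within 1 kb of 222 members (3.22%). The name "acetylation lost" thus fits the called interval at every member by construction, and the 2578 members over 10 kb from any treated peak are those with no treated H3K27ac peak called within that range.

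**Figure D2:**
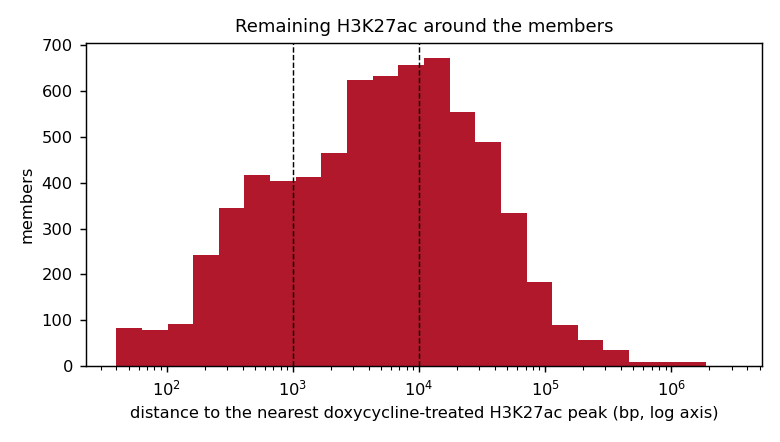
Number of members by distance in bp (log axis) to the nearest H3K27ac peak of the doxycycline-treated list; dashed lines stand at 1 kb and 10 kb. The 3 ranges they make hold 1614, 2702 and 2578 members.

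Members lay in a protein-coding gene body in 65.5% of cases, against 63.3% of shared distal peaks, with median distances of 13301 bp and 13127 bp to the nearest gene end. Of members, 17.1% were over 50 kb from any gene end, against 16.0% of shared distal peaks. In position the members were thus close to the shared distal peaks. The share of distal peaks that were members ran from 32.5% on chromosome 16 to 42.8% on chromosome 11 and 43.6% on chromosome X; on chromosome Y the 1 such peak was a member.

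H3K4me1 was present at every member by the rule, but it did not keep its extent at all of them. The treated H3K4me1 list as a whole had wider peaks, with a median of 1153 bp against 903 bp untreated. Under shared distal H3K27ac peaks the H3K4me1 peak followed this, with a median of 6003 bp treated and 4803 bp untreated and a median treated-to-untreated ratio of 1.12 per site. Under treated-only distal peaks it was 5753 bp treated and 3403 bp untreated, with a ratio of 1.44. Under members it was 3753 bp treated and 4103 bp untreated, with a ratio of 0.974 (95% interval of the median 0.966 to 0.979). The treated H3K4me1 peak was the narrower one at 54.3% of members (53.1 to 55.4), 24.5% of shared distal peaks and 8.94% of treated-only peaks. It was at most 50% as wide at 9.73% of members and 1.91% of shared distal peaks. Both H3K4me1 lists entered the rule, through presence of a peak, so these widths are given as a description.

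**Figure D3:**
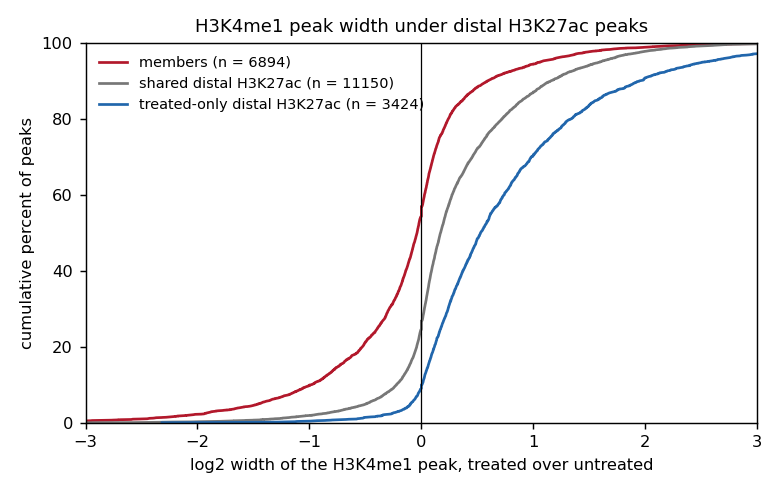
Cumulative percent of distal H3K27ac peaks by the log2 ratio of the H3K4me1 peak width, treated over untreated, at the same site; lines are the 6894 members, 11150 shared distal and 3424 treated-only distal peaks. The member line crosses 0 near 54.3% and lies above the other lines there, where shared peaks stand near 24.5% and treated-only peaks near 8.94%.

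The narrowing went with the width of the member and with its distance from remaining acetylation. The treated H3K4me1 peak was narrower at 47.5% of members under 500 bp, 54.6% from 500 to 1000 bp, 71.7% from 1000 to 2000 bp and 90.6% (84.7 to 94.8) at 2000 bp or more, where the median ratio was 0.688. At shared distal peaks the same classes gave 18.1%, 21.0%, 26.4% and 31.0%. By distance to treated H3K27ac, it was narrower at 32.3% of members with such a peak within 1 kb, 55.7% at 1 to 10 kb and 66.4% beyond 10 kb, with median ratios of 1.05, 0.968 and 0.891. H3K4me1 filled the window of 1 kb either side of the midpoint in both lists at 47.6% of members and 68.0% of shared distal peaks. In this window, covered length was shorter in the treated list at 32.8% of members, longer at 17.2% and equal at the other 3444 members. At shared distal peaks 6.93% were shorter and 23.5% longer. The mean was 1789 bp treated and 1861 bp untreated at members, and 1908 bp treated and 1858 bp untreated at shared distal peaks. It was shorter by over 1000 bp at 79 members and at 0 shared distal peaks (upper bound 0.0331%).

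The authors' H3K4me1 score, which ranks peaks within a list, placed the peaks under members at a median percentile of 88.5 in the treated list and 93.0 in the untreated list. For shared distal peaks these percentiles were 95.2 treated and 95.1 untreated, and for treated-only peaks 94.7 treated and 90.2 untreated. Ranks come from lists of different length and show no change by themselves.

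The widest member, 11503 bp at chr5:3493049-3504551, lay inside Cdk6, the kinase that drives G1 entry in blood progenitors. Its H3K4me1 peak was 12853 bp wide in the treated list and 25953 bp in the untreated list, and treated H3K27ac resumed 4848 bp away. The next was 4753 bp in Rnf130, a ubiquitin ligase gene, with an H3K4me1 peak of 8453 bp treated and 15753 bp untreated. In Tcf12, which encodes the E-box factor HEB, a member of 4203 bp had 4703 bp treated and 10203 bp untreated and no treated H3K27ac for 78398 bp. A 3703 bp member near Cd180, a Toll-like receptor relative of B and myeloid cells, had 3653 bp treated and 7053 bp untreated. The other widest members, at Sipa1l1 and Rasa1 (GTPase activators for Rap and Ras), Slc45a3, Kifbp, Foxn2 and Tent5a, were 3603 to 4153 bp wide. Of the 10 widest, 9 had a narrower treated H3K4me1 peak, and Foxn2 had a wider one, with 6253 bp treated and 5603 bp untreated.

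The largest falls in H3K4me1 around a member were near Ccdc130, with 403 bp treated and 2001 bp untreated, and in the gene LOC108168726, with 453 bp and 2001 bp in that order. Members near Calml3, a calmodulin-like gene, in Stk10, a lymphocyte kinase gene, and near Lrrc8c, a volume-regulated anion channel subunit, each had 503 bp treated and 2001 bp untreated. Among the 5 largest gains was Ubr2, a ubiquitin ligase gene, with 1902 bp treated and 706 bp untreated. Others were in Eefsec (2001 bp treated, 952 bp untreated) and in Ak7 (1527 bp treated, 503 bp untreated). At Ubr2 and Eefsec, but not at Ak7, the treated H3K4me1 peak also held treated H3K27ac. The 5 members ranked highest for H3K4me1 in both lists were all inside 1 H3K4me1 domain at Bcl11a, the fetal globin repressor, which was 80803 bp wide treated and 81103 bp untreated. There the nearest treated H3K27ac was 298 to 1648 bp from each member.

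Some genes had many members, and they are ranked here by count. Of 21887 protein-coding genes, 3655 (16.7%) had at least 1 member assigned, by gene body or else by the nearest end. Fut8, the core fucosyltransferase of N-glycans, had 15 members among 21 distal untreated peaks. Rabgap1l, a Rab GTPase activator, and Chst15, a sulphotransferase of chondroitin sulphate, had 14 of 20 each. Meis1, the homeobox partner of HOX proteins in progenitors, had 13 of 17, and Angpt1, a ligand of the receptor TIE2, 12 of 16. With 11 members each followed Rap1a (11 of 13), a small GTPase of integrin adhesion; Zfp710 (11 of 14), a zinc finger gene; Cux1 (11 of 18), a homeobox gene; Sema4d (11 of 20), a semaphorin; and Fam3c (11 of 15), a secreted factor. Nfia (11 of 31), a nuclear factor I gene, Blm (11 of 24), the Bloom helicase gene, and Snd1 (11 of 15), an RNA-binding nuclease gene, also had 11. Kdm6a, which encodes the H3K27 demethylase UTX, had 11 of 12, and Zeb2, a zinc finger repressor, 10 of 28. Over all genes, 38.2% of distal untreated peaks were members. Nfia (35.5%) and Zeb2 (35.7%) lay below this, so they are listed for their many distal peaks and not for a high share. Treated-only distal peaks numbered 0 to 2 at each of these 15 genes.

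At the ends of those genes H3K27ac mostly stayed. Within 1 kb of either end of Chst15 there were 0 bp in the treated list and 1056 bp in the untreated list, and at Sema4d 1777 bp treated and 3005 bp untreated. Meis1 had 1651 bp treated and 2175 bp untreated, Blm 2410 bp and 3746 bp in that order. Rabgap1l, Rap1a and Cux1 had 2001 bp in both, Zeb2 1160 bp in both, and Nfia 0 bp in both. Angpt1 had 1425 bp treated and 1275 bp untreated. Over all genes with untreated H3K27ac at an end, 3.59% had none there in the treated list, and of genes with treated H3K27ac at an end, 2.11% had none in the untreated list. The share without treated H3K27ac was 3.51% of genes with no member, 3.68% with 1, 4.41% with 2 to 3, 2.68% with 4 to 7 and 4.35% (2 of 46, 0.531 to 14.8) with 8 or more, with no steady order over the classes. The share of genes with treated H3K27ac at an end and none untreated was 2.64%, 0.834%, 0.603%, 0.344% and 0% (0 of 44, upper bound 8.04%) over the same classes. The classes from 2 to 3 members upward rest on 5 of 829, 1 of 291 and 0 of 44 genes. Members are themselves untreated H3K27ac peaks, so the classes are not independent of untreated H3K27ac at the ends. Nothing is read from this fall. The acetylated length at the ends was compared without an interval or a test, at genes with untreated H3K27ac at an end. Over the same classes, from no member (7371 genes) to 8 or more (46), it was shorter in the treated list at 35.4%, 34.5%, 39.4%, 41.9% and 41.3%. It was longer at 46.4%, 40.9%, 38.3%, 34.2% and 28.3%. The share that was shorter thus had no steady order, while the share that was longer fell at each step. The same dependence on untreated H3K27ac holds here, so nothing is read from that fall either. Genes with more members are longer (median 136 kb with 8 or more, 14.5 kb with none).

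Members also formed runs along the chromosome. Such runs were not counted for shared or treated-only distal peaks, so they are not shown to be particular to members. With members at most 10 kb apart joined, 3648 members (52.9%) stood alone and 60 runs of 5 or more held 342 members. In 24 of these 60 runs, the treated list had no H3K27ac peak at all. The distance was chosen after the data were seen: one 25% larger was used first and gave 72 such runs with 416 members, 26 of them with no treated H3K27ac. The longest run, 11 members over 19953 bp in Kdm6a, had 0 treated and 11 untreated H3K27ac peaks, while H3K4me1 covered 19656 bp treated and 18615 bp untreated. In Rap1a a run of 8 members over 13653 bp had 0 treated and 8874 bp untreated H3K27ac, and H3K4me1 covered the whole 13653 bp in both lists. A run of 8 at Nck1, an SH2 and SH3 adaptor gene, had 0 treated and 8 untreated peaks, with 14709 bp treated and 15453 bp untreated H3K4me1. At Zfp710 the run of 8 had 953 bp treated and 9427 bp untreated H3K27ac, with 23424 bp treated and 27724 bp untreated H3K4me1. The run of 6 at Cd48, a receptor of the SLAM family on blood cells, differed in both marks. It had 0 treated and 7271 bp untreated H3K27ac, and 8768 bp treated and 13959 bp untreated H3K4me1. Nck1 and Cd48 were named after their values were seen.

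**Figure D4:**
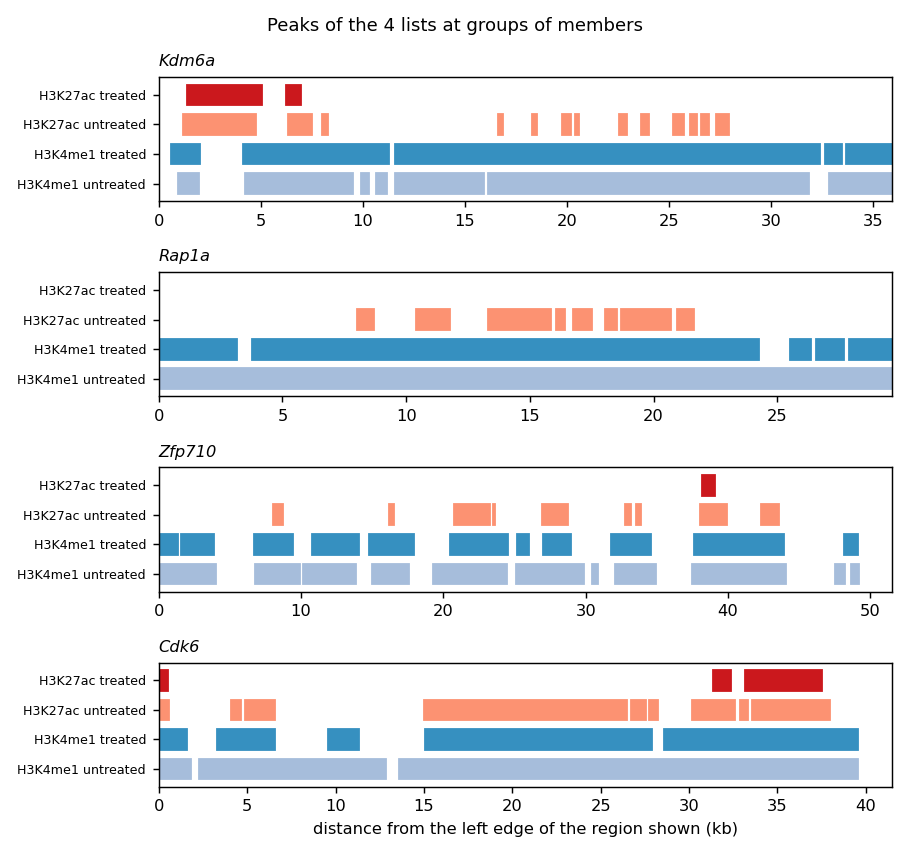
Peaks of the 4 lists (filled bars) along 4 regions with members, at Kdm6a, Rap1a and Zfp710 (runs of members with 8 kb either side) and at Cdk6 (the widest member with 15 kb either side); the x axis is distance in kb from the left edge. Over the runs at Kdm6a and Rap1a the treated H3K27ac row is empty, and over that at Zfp710 it has 1 peak, of 953 bp, above a shared untreated peak; H3K4me1 bars are present in both rows and are shorter in the treated row at Cdk6.

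A larger share of distal untreated peaks were members at myeloid genes than at erythroid genes. Of 57 distal untreated peaks assigned to 50 myeloid genes, 28 were members (49.1%, 95% exact interval 35.6 to 62.7), and of 125 assigned to 47 erythroid genes, 32 were (25.6%, 18.2 to 34.2), beside 38.2% over all genes. The myeloid interval includes the share over all genes and the erythroid one does not; peaks of 1 gene are not independent, and the difference was not tested. Peaks of the same widths over all genes gave 37.9% for the myeloid and 34.9% for the erythroid list. In the other direction, 5 of 34 treated distal peaks at myeloid genes were treated-only (14.7%) and 37 of 113 at erythroid genes (32.7%), beside 25.3% over all genes. At least 1 member was found at 13 of 50 myeloid (26.0%) and 13 of 47 erythroid genes (27.7%), beside 16.7% of all protein-coding genes. Counted by genes, the 2 lists were thus close. Without Bcl11a, its gene with most members, the erythroid share was 22.5% (23 of 102). The lists were set with earlier results of these data known, and the direction of these 2 lists in H3K27ac was part of those results.

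**Figure D5:**
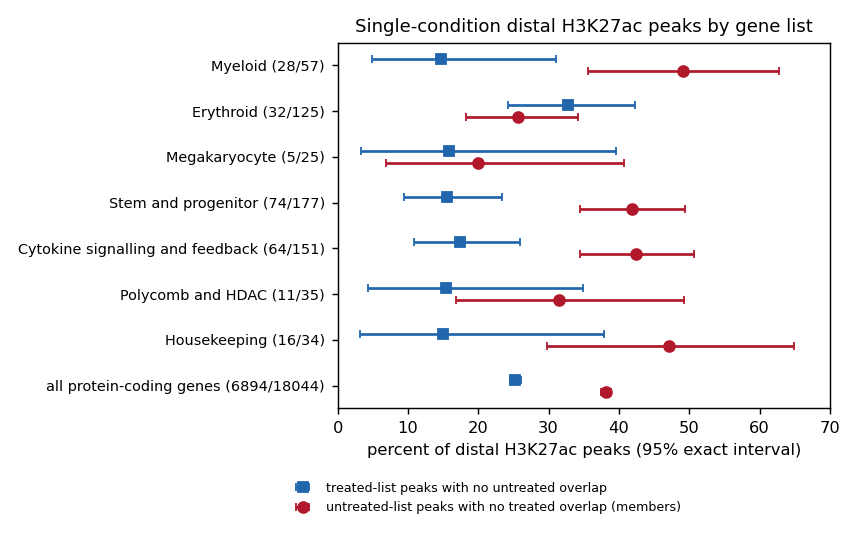
Percent of distal H3K27ac peaks assigned to each gene list with at least 20 distal untreated peaks that were found in 1 condition alone; squares (upper) are treated-list peaks with no untreated overlap, circles (lower) untreated-list peaks with no treated overlap (members, counts in brackets), and bars are 95% exact binomial intervals. The member share is 49.1% at myeloid and 25.6% at erythroid genes, with 38.2% over all protein-coding genes.

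Among myeloid genes, Fcgr3, shown above, had 3 members of 4, and Btk, a tyrosine kinase of B and myeloid cells, 3 of 4, with 3219 bp treated and 3469 bp untreated at its ends. Cebpb, a C/EBP factor, had 3 of 9, with 3518 bp at its ends in both lists. Ccl9, a CC chemokine, had both of its distal peaks as members and 0 bp treated and 1751 bp untreated at its ends. None of these 4 genes had a treated-only distal peak.

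Among erythroid genes, Bcl11a had 9 members of 23 and Car2, a carbonic anhydrase, 4 of 6. Lmo2, the LIM bridge of the GATA1 complex, had 3 of 10, Foxo3, a forkhead factor of late erythroid maturation, 3 of 9, and Nfe2, an erythroid bZIP factor, 2 of 2. Bcl11a, Car2 and Foxo3 had 1 treated-only distal peak each and Lmo2 had 2. At the gene ends H3K27ac filled 2001 bp in both lists for Bcl11a, Car2, Lmo2 and Foxo3, and 2001 bp treated and 1754 bp untreated for Nfe2.

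Stem and progenitor genes had 74 members among 177 distal untreated peaks (41.8%, 34.5 to 49.4), at 12 of 25 genes, and 15.5% of their treated distal peaks were treated-only. Besides Meis1 and Angpt1, they were led by Cdk6 with 9 of 16, Etv6, an ETS repressor, with 9 of 12, and Ikzf1, the Ikaros factor, with 8 of 15. Cytokine signalling and feedback genes had 64 of 151 (42.4%, 34.4 to 50.7), at 19 of 32 genes. The adaptor Grb2 had 8 of 11, the adaptor Gab2 7 of 9, the Ras inhibitors Spred1 and Spred2 6 of 7 and 5 of 8, and the factor Stat3 4 of 7. Both intervals include the 38.2% over all genes. At least 1 member was found at 48.0% of the stem and progenitor and 59.4% of the cytokine genes, beside 16.7% of all protein-coding genes. These genes are longer, with median bodies of 69.7 kb and 35.9 kb, beside 17.2 kb over all genes.

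Polycomb and HDAC genes had 11 of 35 (31.4%, 16.9 to 49.3). Hdac7 had 4 of 9. The PRC2 core gene Eed had both of its distal untreated peaks as members and 4 treated-only peaks, the PRC2 partner Jarid2 had 1 of 2, and the methyltransferase gene Ezh2 1 of 3. Megakaryocyte genes had 5 of 25 (20.0%, 6.83 to 40.7), of which the ETS gene Fli1 held 3, Gata2 1 and the integrin gene Itga2b 1. Housekeeping genes, the control list, had 16 of 34 (47.1%, 29.8 to 64.9), led by Ywhaz, a 14-3-3 gene, with 6 of 17 and the tubulin gene Tuba1b with 4 of 4. That share was close to the 49.1% of the myeloid genes. Without Ywhaz the housekeeping share was 58.8% (10 of 17). With any gene that has an end within 50 kb it was 37.8% (28 of 74), against 49.6% (58 of 117) for the myeloid genes. The control list thus does not set the myeloid share apart. B cell genes had 0 of 1, T cell genes 0 of 3, and stromal and endothelial genes 3 of 6, at Kdr and Pdgfrb.

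Spi1 itself had no member. The nearest lay 29923 bp from it, and 2 were within 50 kb, next to Psmc3, a proteasome gene, and Rapsn, a synapse gene, with widths of 53 bp and 203 bp. H3K27ac covered 753 bp within 1 kb of the ends of Spi1 in the treated list and 1529 bp in the untreated list, and 5 distal peaks there were shared. Since the hairpin targets RNA, neither mark is a measure of its effect on Spi1.

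Of 1005 microRNA hairpins in RefSeq, 26 (2.59%) lay within 2 kb of a member, against 58 near a shared distal peak and 7 near a treated-only one. The 6 hairpins of the Mir17 cluster, which restrains apoptosis and cell cycle inhibitors in blood cells, lay 43 to 795 bp from a member of 503 bp at chr14:115044549-115045051. Treated H3K27ac was 648 bp from it, and H3K4me1 filled 2001 bp in both lists. Mir15b and Mir16-2 lay 771 and 901 bp from a member of 403 bp that had treated H3K27ac 248 bp away. Mir146b, a feedback inhibitor of inflammatory signalling, lay 629 bp from a member of 703 bp with treated H3K27ac 3098 bp away. Mir32 lay 1978 bp from a member of 653 bp, with treated H3K27ac 27198 bp away. Of the 26 hairpins, 14 were near a member that had treated H3K27ac within 1 kb. The mature microRNAs below, from RefSeq on GRCm38.p6, are grouped by seed, which stands in capitals (bases 2 to 8).
miR-17-5p: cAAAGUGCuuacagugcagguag
miR-20a-5p: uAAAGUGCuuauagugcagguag
miR-18a-5p: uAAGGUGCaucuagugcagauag
miR-19a-3p: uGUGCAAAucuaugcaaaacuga
miR-19b-3p: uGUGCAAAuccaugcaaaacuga
miR-92a-3p: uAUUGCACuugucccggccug
miR-32-5p: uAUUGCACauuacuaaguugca
miR-15b-5p: uAGCAGCAcaucaugguuuaca
miR-16-5p: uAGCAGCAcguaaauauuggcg
miR-146b-5p: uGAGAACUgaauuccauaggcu

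The seed AAAGUGC was shared by miR-17 and miR-20a, GUGCAAA by miR-19a and miR-19b, AUUGCAC by miR-92a and miR-32, and AGCAGCA by miR-15b and miR-16. The miR-92a and miR-32 hairpins are on chromosomes 14 and 4, so this seed came from different members.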

How the data were processed

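Per the series' design text, each deposited H3K27ac list stands for replicates 1 and 2 together and each H3K4me1 list for replicate 1. Per the submitters' processing notes, bcl2fastq 2.17.1.14, BWA and mm10 were used. Which peak caller was run, and how replicates were joined, is not given in the sources used here. For H3K27ac, position and width in bp were deposited. The deposited H3K4me1 lists add the authors' score per peak, of unstated scale, which served only for ranks inside a list, and a further deposited column under 0.01, a p-value or q-value, which was not used. The other marks and treatments of the series were not analysed here.

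Positions were taken as 1-based, ends included. The 21887 protein-coding genes came from a RefSeq table on GRCm38.p6, which corresponds to mm10. A peak was assigned to the gene whose body held it, otherwise to the nearest end. Each site's H3K4me1 peak was the one with the best score overlapping it. Shares carry exact Clopper-Pearson 95% intervals, and medians order-statistic intervals. The planned motif search in 500 bp windows was not run without a genome, and start windows replaced it. The members, gene lists and naming rules were chosen with earlier results of these data known. The rules took the 10 widest members, the 5 largest H3K4me1 gains and losses, the 5 with the highest lower score rank, the 3 on each side of the 1 kb limit, those nearest Spi1, the 15 genes with most members and up to 5 genes per list. Some genes that these rules take are not reported here. Tools were Python 3.11.15, numpy 2.4.6, pandas 2.3.3, scipy 1.17.1 and matplotlib 3.10.9. The rule was tested on simulated data, where 803 of 803 planted members and 0 others were taken, and checked against bedtools 2.31.1. Alternatives were stricter overlaps and distances, other windows, scaled H3K4me1, equal peak numbers, wider or better-scored peaks, merged peaks, autosomes and other gene assignment. For runs of members, the joining distance was changed once after the results were seen, and both results are given.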

Additional observations from a re-analysis of the deposited data

How the results depend on the processing

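The number of members stayed within 1.5 times of 6894 under 8 of 11 alternatives, and was 2852 with the wider 50% of each H3K27ac list, 4025 with equal H3K27ac peak numbers and 4386 with H3K27ac peaks within 1 kb merged. Fewer peaks enter each of these. The share of members with shorter treated H3K4me1 within 1 kb (32.8%) was 36.0% with no treated H3K27ac allowed within 500 bp, 29.4% where 50% cover defined sharing, 29.9% with the better 50% of each H3K4me1 list, 21.4% with wider, 35.6% with equal and 37.7% with merged H3K27ac peaks. It was 13.6% with 500 bp and 52.4% with 2500 bp either side, and 87.7% with treated lengths scaled to the untreated total, because scaling shortens every window filled in both lists. At shared distal peaks the scaled share was 81.8%. In each setting run, the share was higher at members than at shared distal peaks, by 5.97 to 32.1 percentage points. For narrower treated H3K4me1 peaks the gap was 28.1 to 33.9 points, and with scaled widths the shares were 67.6% and 39.5%. These alternatives for peak width were chosen after seeing the data.

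The share in a gene body (65.5%) was 67.6% with ends of all annotated genes, 63.8% with wider, 64.1% with equal and 63.4% with merged H3K27ac peaks. The share within 1 kb of treated H3K27ac (23.4%) was 10.1% with none allowed within 500 bp, 34.96% where 50% cover defined sharing, 18.9% over 5 kb from gene ends, 20.8% with peaks of at least 200 bp, 6.91% with wider, 17.4% with equal and 4.38% with merged peaks. The myeloid share (49.1%) was 76.0% (19 of 25) with wider peaks, and the erythroid share (25.6%) was 17.9% (10 of 56) there and 16.8% with no treated H3K27ac within 500 bp. In each setting run, the myeloid share was above the erythroid one. With any gene that has an end within 50 kb, these were 49.6% and 29.2%.

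No paired analysis was possible because each mark and condition has 1 list, in which replicates are not given apart, and for the same reason none was left out in turn. The motif windows of 300, 500 and 1000 bp were not run without a genome. Depth is unknown, and an absent peak is not shown to be absent signal.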
